A study of Mus musculus with 6 samples.

Results

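The 10 genes described here, Dazl, Hormad1, Sohlh2, Smc1b, Tuba3a, Sycp3, Mael, Ddx4, Stra8 and Tex101, are genes of the germline and of meiosis, and were picked by symbol from the 24984 genes counted. They were chosen with earlier results of these data known. RNA came from mouse E14TG2a embryonic stem cells, a pluripotent line grown in N2B27, a medium without serum. The 6 libraries form 3 groups of 2. The D395A group carries the METTL3 D395A allele, which changes a residue of the active site and was put in by CRISPR/Cas9 with an end-joining insertion. The KO group is a METTL3 knockout made by CRISPR/Cas9 disruption of the gene, and the WT group is the unmodified line. METTL3 is the methyltransferase behind most N6-methyladenosine (m6A) of messenger RNA, and the stated purpose of the study concerns m6A and circular RNA, which was not analysed here. The labels give neither the number of clones behind each mutant line nor the cultures behind the libraries of each group. All p-values therefore reflect the spread from library to library alone, which may be technical, and what 1 clone brings with it cannot be told apart from the mutation.

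Germ cells use a set of genes that other cells keep silent: synaptonemal complex and cohesin proteins that pair and hold meiotic chromosomes, RNA-binding proteins of the germ granule, the piRNA pathway that silences transposons, and the regulators that start meiosis. In mouse embryonic stem cells many of them are held down by CpG methylation of their promoters and by PRC1.6, a Polycomb complex that reaches DNA through MGA with MAX, which recognise the E-box, and through E2F6. Part of the set is nevertheless transcribed in cultured stem cells.

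Gene counts ran from 22859491 to 40476809 per library, lowest in D395A replicate 1, and 1 count equalled 0.0246 to 0.0426 CPM, the count relative to the TMM-scaled library total. Libraries of the same group were not alike within counting noise: chi-square over degrees of freedom was 11.12 in D395A, 6.484 in KO and 3.19 in WT. Mettl3 itself had 21.1 and 23.4 CPM in D395A, 7.82 and 6.17 CPM in KO, against 28.5 and 31.6 CPM in WT, so its RNA was lowest in KO. A gene "passed" below where edgeR's quasi-likelihood F test gave a Benjamini-Hochberg adjusted p under 0.05 over the 15663 genes tested, and all 10 genes were among those tested. A value given with ± and no unit is (± SE) a log2 fold change of the fit, over WT unless another group is named, and levels are in CPM. In bulk RNA, fewer cells that express a gene and less RNA per cell cannot be told apart.

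In both mutant lines most of the 10 genes were lower than in WT. In D395A 7 passed as lower and 1, Stra8, as higher, while Ddx4 and Tex101 did not pass. In KO 9 passed as lower, none as higher, and Tex101 did not pass. Changes were common in these lines. Against WT, 70.3% of all genes tested passed in D395A and 66.2% in KO. Split by direction, 34.0% of all genes tested passed as lower and 36.3% as higher in D395A, with 32.6% and 33.6% in KO. These shares are the background for every count against WT given below for a list of genes. The median log2 fold change of the 10 genes was -2.37 in D395A and -2.16 in KO, beside 0.02 and 0.01 for all genes tested. Of the 10 genes, 5 in D395A and 6 in KO passed with a log2 fold change of -2 or below, a cutoff chosen after the values were seen, as did 5.57% of all genes in D395A and 4.17% in KO. Because the 10 genes were chosen with earlier results known, these medians and shares describe them and do not test the set. No D395A or KO library of any of the 10 genes overlapped the WT libraries, a pattern that 85.3% of all genes showed for D395A against WT and 83.9% for KO against WT. Both sets of comparisons use the same WT libraries. The summed level of the 10 genes was 263 and 224 CPM in D395A, 101 and 109 CPM in KO, against 564 and 589 CPM in WT. Stra8 made up 74.4% of that sum in D395A, 12.6% in KO and 4.34% in WT, and without it the sums were 63.3 and 61.4 CPM in D395A, 88.2 and 95.4 CPM in KO, against 539 and 564 CPM in WT.

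**Figure D1:**
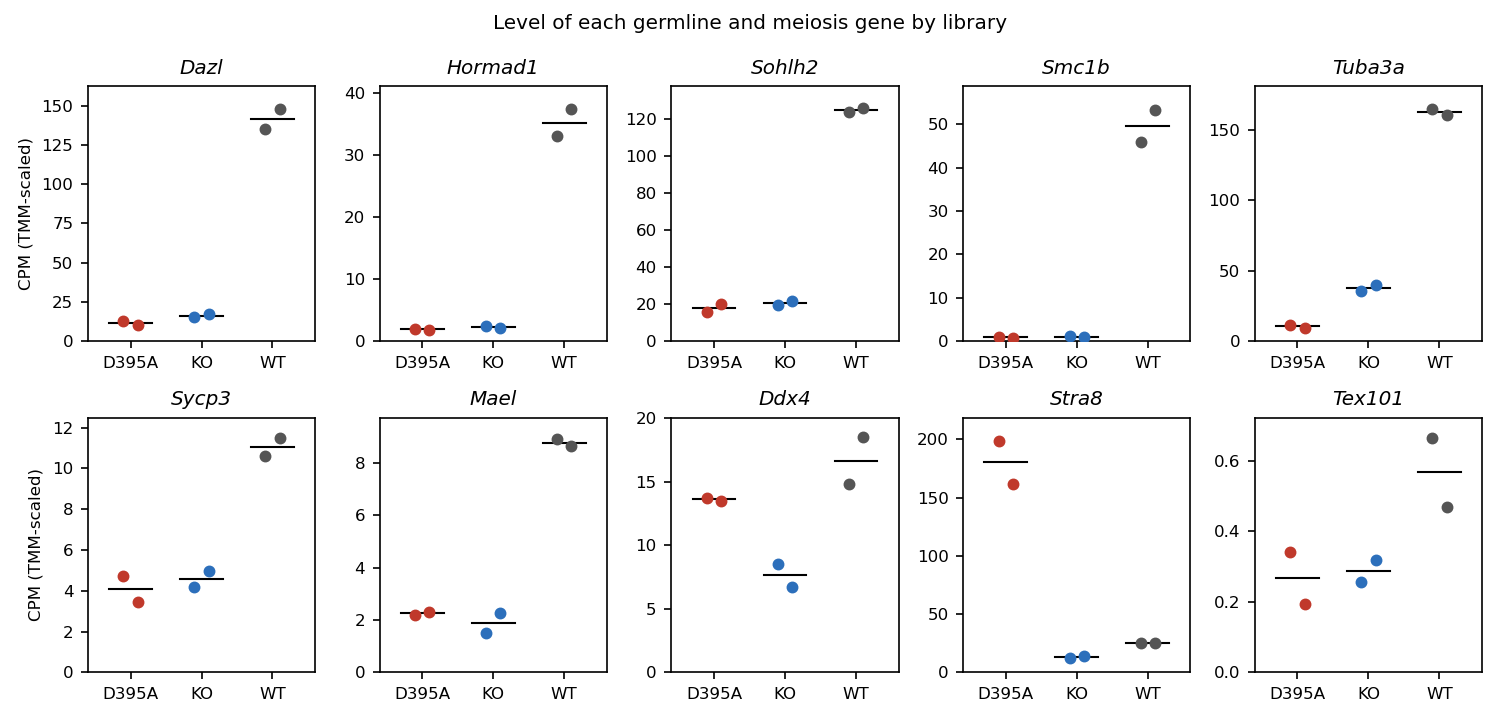
Level of each of the 10 genes in CPM scaled by TMM (vertical axis, linear and from 0, with its own scale per panel) in each library of D395A, KO and WT. Points are libraries and bars are the mean of 2; Smc1b stands at 0.937 and 0.693 CPM in D395A against 46.0 and 53.4 CPM in WT, and Stra8 is the gene that is high in D395A, at 199 and 162 CPM.

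Per kilobase of exon (GENCODE M21), the WT order was Tuba3a at 108 ± 2.14 CPM per kb, Sohlh2 at 52.9 ± 0.477, Dazl at 37.0 ± 2.38, Hormad1 at 20.3 ± 1.81, Stra8 at 13.9 ± 0.122, Smc1b at 12.3 ± 1.29, Sycp3 at 8.73 ± 0.486, Ddx4 at 5.51 ± 0.872, Mael at 5.06 ± 0.1 and Tex101 at 0.342 CPM per kb (SD, n = 2 libraries). Of these, 9 lay above the median tested gene in WT, which had 4.03 CPM per kb, and Tex101 lay below it. Ddx4 and Mael, next to each other in this order, did not differ beyond their spread. In D395A Stra8 led at 100 CPM per kb, followed by Sohlh2 at 7.53 and Tuba3a at 6.84, which did not differ beyond their spread. Smc1b at 0.201 and Tex101 at 0.161 closed the D395A order and did not differ beyond their spread either. In KO Tuba3a led at 24.9 CPM per kb, then Sohlh2 at 8.70 and Stra8 at 7.31, and Smc1b at 0.247 and Tex101 at 0.173 were again last.

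Promoter sequence was read to see what the genes share beyond their function. For each gene the window runs from 250 bases before to 50 bases after the RefSeq start (GRCm38.p6), and all 10 were matched. The windows of the 10 genes are rich in CpG, with a median of 21.5 CpG, beside 7 over the 27025 promoters of the same length, and a median GC content of 62.5%, beside 52.67%. The numbers ran from 10 CpG in Stra8 and 12 in Tuba3a to 29 in Smc1b and 38 in Ddx4. The E-box CACGTG, which reads the same on both strands, occurs in Hormad1, Sycp3, Mael and Ddx4, 4 of the 10, and in 7.24% of all promoters. The E2F core GCGGGA, sought on both strands, occurs in those 4 and in Smc1b and Tuba3a, 6 of the 10, and in 20.0% of all promoters. No match of either motif overlaps one of the other. Among the 11876 promoters with at least 10 CpG, a minimum chosen after the windows of the 10 genes were seen, the shares were 11.1% and 40.3%. Dazl, Sohlh2, Stra8 and Tex101 hold neither. A match is a description of letters, and binding was not measured here.

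Below are 6 windows, 5′ to 3′ on the strand of the gene, chosen to set Smc1b, the gene with the lowest log2 fold change against WT, and 3 genes with both motifs beside 2 genes with neither, with the motifs in capitals (TCCCGC is GCGGGA on the other strand). They are Smc1b (chr15:85131908-85132207, minus), Hormad1 (chr3:95559427-95559726, plus), Sycp3 (chr10:88459337-88459636, plus), Ddx4 (chr13:112652261-112652560, minus), Dazl (chr17:50293571-50293870, minus) and Stra8 (chr6:34920698-34920997, plus).
Smc1b: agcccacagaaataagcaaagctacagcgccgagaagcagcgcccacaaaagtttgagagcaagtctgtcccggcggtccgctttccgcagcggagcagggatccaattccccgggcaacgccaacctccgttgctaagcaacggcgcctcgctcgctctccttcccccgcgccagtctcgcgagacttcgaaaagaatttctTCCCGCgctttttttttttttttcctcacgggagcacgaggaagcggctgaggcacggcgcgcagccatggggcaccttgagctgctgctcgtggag
Hormad1: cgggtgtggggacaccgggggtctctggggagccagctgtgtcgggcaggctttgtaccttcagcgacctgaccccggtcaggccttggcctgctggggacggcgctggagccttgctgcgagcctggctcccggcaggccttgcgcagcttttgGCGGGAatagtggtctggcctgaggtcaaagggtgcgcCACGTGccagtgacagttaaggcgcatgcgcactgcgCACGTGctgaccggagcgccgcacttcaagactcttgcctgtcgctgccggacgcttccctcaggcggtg
Sycp3: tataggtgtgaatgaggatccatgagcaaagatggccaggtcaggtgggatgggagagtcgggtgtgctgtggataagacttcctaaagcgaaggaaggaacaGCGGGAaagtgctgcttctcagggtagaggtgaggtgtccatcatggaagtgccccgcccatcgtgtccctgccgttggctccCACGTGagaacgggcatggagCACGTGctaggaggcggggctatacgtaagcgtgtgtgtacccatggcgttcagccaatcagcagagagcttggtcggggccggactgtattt
Ddx4: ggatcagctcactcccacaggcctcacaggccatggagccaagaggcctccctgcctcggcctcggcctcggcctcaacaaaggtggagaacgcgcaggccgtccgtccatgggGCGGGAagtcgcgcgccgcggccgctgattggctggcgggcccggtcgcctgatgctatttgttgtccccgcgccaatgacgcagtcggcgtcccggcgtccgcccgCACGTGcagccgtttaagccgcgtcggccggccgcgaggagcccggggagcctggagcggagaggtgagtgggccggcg
Dazl: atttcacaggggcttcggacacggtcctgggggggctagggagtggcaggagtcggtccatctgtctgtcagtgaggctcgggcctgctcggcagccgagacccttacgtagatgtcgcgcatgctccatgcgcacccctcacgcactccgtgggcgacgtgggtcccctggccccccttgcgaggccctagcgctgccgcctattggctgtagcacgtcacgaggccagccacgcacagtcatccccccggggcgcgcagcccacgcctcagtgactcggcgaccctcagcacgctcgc
Stra8: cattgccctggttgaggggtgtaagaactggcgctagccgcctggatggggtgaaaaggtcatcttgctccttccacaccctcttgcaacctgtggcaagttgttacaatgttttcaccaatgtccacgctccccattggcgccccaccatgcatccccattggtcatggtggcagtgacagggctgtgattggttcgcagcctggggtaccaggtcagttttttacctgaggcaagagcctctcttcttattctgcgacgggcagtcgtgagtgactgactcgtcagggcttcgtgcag
Hormad1 and Sycp3 each hold 2 E-boxes close to the start and 1 E2F core farther up, and Ddx4 holds 1 of each. Smc1b holds a single E2F core, 47 bases before the start, and Dazl and Stra8 have no capitals. The RefSeq start lies 165 bases inside the GENCODE M21 gene start for Ddx4, 785 bases for Stra8 and 4625 bases for Tex101, so a promoter of another start site of these genes was not read.

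**Figure D2:**
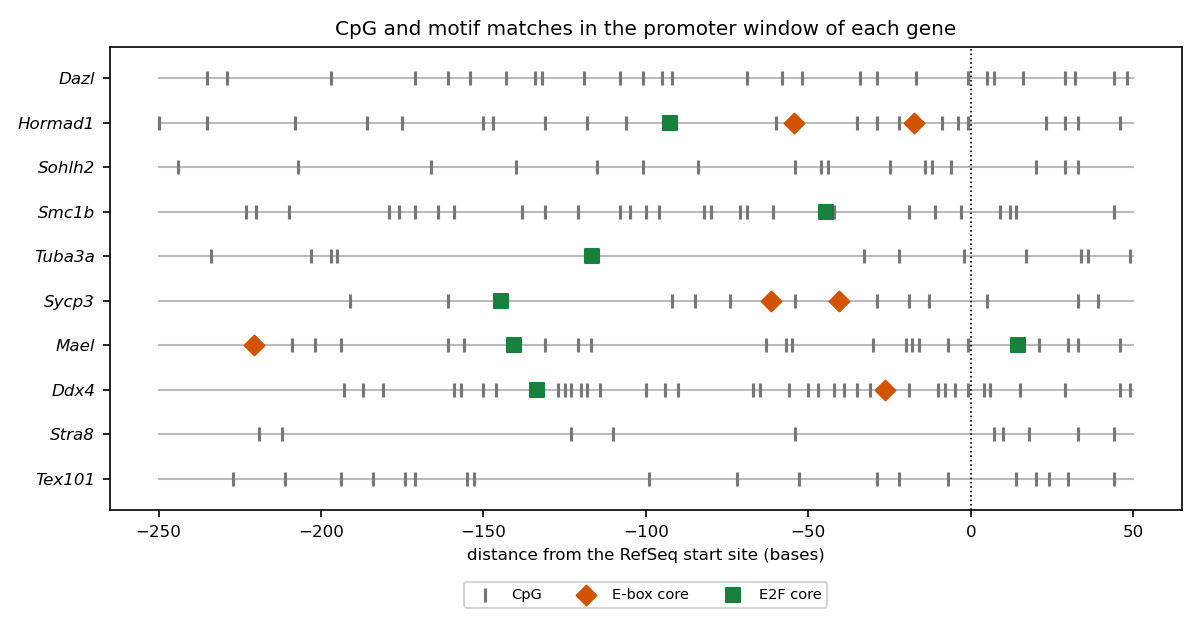
Place of each CpG (grey ticks), E-box core (diamonds) and E2F core (squares) along the promoter window of each of the 10 genes; the horizontal axis is the distance in bases from the RefSeq start site, which the dotted line marks. The 4 genes with neither motif are Dazl, Sohlh2, Stra8 and Tex101, and CpG are most frequent in Ddx4 (38).

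Smc1b encodes the meiosis-specific SMC1 subunit of cohesin, the ring that holds sister chromatids together (chr15:85064689-85131964, GRCm38, minus strand). It had 22 and 25 counts in D395A, 38 and 32 in KO, and 1873 and 1938 in WT, which is 0.937 and 0.693 CPM in D395A, 1.08 and 0.922 CPM in KO, against 46.0 and 53.4 CPM in WT. Both mutant lines lay far below both WT libraries, by a log2 fold change of -5.97 ± 0.15 (SE) in D395A (62.5-fold lower, adjusted p = 1.2e-11) and -5.63 ± 0.14 in KO (49.4-fold lower, adjusted p = 1.9e-11), the lowest of the 10 genes in each comparison. Among the 15663 genes ranked from the lowest log2 fold change it stood at place 85 in D395A and 43 in KO. Its mitotic counterpart Smc1a, part of the cohesin of every dividing cell, had 105 and 113 CPM in D395A, 101 and 95.9 CPM in KO, against 146 and 144 CPM in WT, log2 fold changes of -0.41 ± 0.06 in D395A and -0.56 ± 0.06 in KO. Of the 5 mitotic cohesin subunits, 3 were lower and 2 higher in D395A, and 3 were lower, 1 higher and 1 did not pass in KO. Stag1, which supports the ring, was higher, by 0.42 in D395A and 0.45 in KO. Rad21, the subunit that closes it, was lower by a log2 fold change of -0.37 in D395A and -0.31 in KO, and Smc3, the partner of both SMC1 proteins, at -0.32 in D395A and -0.36 in KO.

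Hormad1 encodes a HORMA-domain protein of the unsynapsed meiotic chromosome axis (chr3:95559677-95587671, plus strand). Its level was 1.92 and 1.77 CPM in D395A, 2.45 and 2.02 CPM in KO, against 33.0 and 37.4 CPM in WT. WT stood clear of both mutant lines, at log2 fold changes of -4.26 ± 0.13 in D395A (adjusted p = 5.1e-11) and -3.98 ± 0.13 in KO (adjusted p = 1e-10). Sycp3 encodes a lateral element protein of the synaptonemal complex (chr10:88459569-88473236, plus strand). It had 4.73 and 3.44 CPM in D395A, 4.18 and 4.96 CPM in KO, against 10.6 and 11.5 CPM in WT, a fall of smaller size: -1.46 ± 0.16 in D395A (adjusted p = 5e-06) and -1.27 ± 0.16 in KO (adjusted p = 1.3e-05). Of the Sycp3 exon bases, 52.22% overlap exons of Chpt1, a phospholipid synthesis gene on the opposite strand, and whether counting used strand is not given in the sources used here, which makes its counts uncertain. Chpt1 passed as higher in KO and did not pass in D395A (adjusted p = 0.051), with 15.3 and 14.6 CPM in D395A, 26.8 and 29.8 CPM in KO, against 12.2 and 13.4 CPM in WT.

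Beyond these, 7 of 10 other genes of the meiotic axis and synaptonemal complex were tested, of which 4 were lower, 1 higher and 2 did not pass in D395A, and 5 were lower, 1 higher and 1 did not pass in KO. Their medians were -0.75 in D395A and -1.0 in KO. Hormad2, the relative of Hormad1, had 0.937 and 0.527 CPM in D395A, 1.79 and 2.51 CPM in KO, against 28.5 and 29.8 CPM in WT, log2 fold changes of -5.39 ± 0.20 in D395A and -3.76 ± 0.16 in KO. Syce2, of the central element, was lower too, at -1.48 ± 0.08 in D395A and -1.79 ± 0.08 in KO. Sycp2, the partner of SYCP3, had -1.03 ± 0.54 in D395A, which did not pass (adjusted p = 0.11), and -1.39 ± 0.55 in KO, which did (adjusted p = 0.04). That KO call was lost in 5 of 14 alternatives: without KO replicate 2 (adjusted p = 0.217), WT replicate 1 (0.16) or WT replicate 2 (0.105), with DESeq2 (0.0558), and with replicate number as a block (0.0509). Rec8, the meiotic kleisin of cohesin, went the other way, with 68.6 and 66.1 CPM in D395A, 34.5 and 33.3 CPM in KO, against 24.3 and 22.7 CPM in WT, log2 fold changes of 1.52 ± 0.07 in D395A and 0.53 ± 0.07 in KO.

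Dazl encodes an RNA-binding protein that sustains translation of germ cell messages (ENSMUSG00000010592.9, chr17:50279395-50293636, minus strand). Its level was 12.5 and 10.3 CPM in D395A, 15.0 and 17.0 CPM in KO, against 135 and 148 CPM in WT. WT was highest, KO lower and D395A lowest, with no overlap between any of the groups, at log2 fold changes of -3.65 ± 0.10 in D395A (12.6-fold lower, adjusted p = 1.6e-11) and -3.15 ± 0.09 in KO (8.86-fold lower, adjusted p = 4.7e-11). Of 9 other genes for germ cell RNA-binding proteins 8 were tested, and 4 were lower, 2 higher and 2 did not pass in D395A, with 6 lower, 1 higher and 1 not passed in KO. Boll, the closest relative of Dazl among them, had 0.937 and 0.832 CPM in D395A, 1.28 and 2.05 CPM in KO, against 4.89 and 4.19 CPM in WT, log2 fold changes of -2.37 ± 0.30 in D395A and -1.45 ± 0.28 in KO. Ddx25, a germ cell RNA helicase, was lower at -1.02 ± 0.22 in D395A and -1.78 ± 0.23 in KO. Rbm46, which is needed for meiotic entry, was higher, by 1.92 ± 0.38 in D395A and 1.83 ± 0.38 in KO.

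By Pearson correlation of log2(CPM + 0.5) over the 6 libraries, among 11934 tested genes with a mean of at least 2 CPM, the genes most like Dazl in pattern were Map6d1 (r = 0.99896), Lsm12 (0.9989), Trub2 (0.99888), Cct4 (0.99883) and Ipo11 (0.99857). With 3 groups of 2 such values are common, and 229 genes reached 0.99 or more. Their sizes of change differed from that of Dazl: Trub2 had a log2 fold change of -0.32 in D395A and -0.28 in KO. Within the set, Smc1b had a correlation with Dazl of 0.995, Hormad1 of 0.994 and Sohlh2 of 0.991, while Ddx4 had 0.578 and Stra8 -0.395.

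Ddx4 encodes the VASA helicase of the germ granule (chr13:112598333-112652475, minus strand). It had 13.7 and 13.5 CPM in D395A, 8.53 and 6.74 CPM in KO, against 14.8 and 18.5 CPM in WT. KO lay below the other groups at -1.12 ± 0.13 against WT (adjusted p = 9.5e-06). D395A lay just under the lower WT library, at -0.29 ± 0.13 (95% interval -0.57 to -0.01, adjusted p = 0.063), and 5 of 14 alternative analyses put this difference past the threshold, with adjusted p from 0.0131 to 0.0259. Mael encodes a protein needed for transposon silencing through piRNAs (chr1:166201201-166238747, minus strand). Its level was 2.21 and 2.30 CPM in D395A, 1.51 and 2.28 CPM in KO, against 8.90 and 8.65 CPM in WT, with log2 fold changes of -1.95 ± 0.20 in D395A (adjusted p = 1.8e-06) and -2.21 ± 0.20 in KO (adjusted p = 6.2e-07).

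Of 19 other genes of the piRNA pathway and germ granule, 17 were tested, and 9 were lower, 3 higher and 5 did not pass in D395A, with 11 lower, 3 higher and 3 not passed in KO. Their median was -1.62 in D395A and -1.33 in KO. Rnf17, a Tudor-domain protein, averaged 9.69 ± 0.45 CPM in D395A, 18.1 ± 0.876 CPM in KO and 162 ± 7.47 CPM in WT (SD, n = 2), log2 fold changes of -4.07 ± 0.08 in D395A and -3.16 ± 0.07 in KO. Asz1, a mitochondrial anchor of piRNA processing, was lower at -3.94 ± 0.44 in D395A and -4.99 ± 0.48 in KO. It had 8 and 6 counts in D395A, 3 and 5 in KO, and 142 and 145 in WT, so the size of its fall is loosely fixed. Mov10l1, the helicase that starts piRNA production, was lower at -3.41 ± 0.12 in D395A and -2.66 ± 0.11 in KO. Tdrd5 shared with Ddx4 its lowest level in KO: it had 2.94 and 2.94 CPM in D395A, 0.37 and 0.173 CPM in KO, against 3.96 and 3.50 CPM in WT. Its log2 fold change was -0.34 ± 0.28 in D395A, which did not pass (adjusted p = 0.28), and -3.76 ± 0.35 in KO (adjusted p = 1e-06), and its level was higher in D395A than in KO by 3.42 ± 0.36 (adjusted p = 5.8e-06).

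**Figure D3:**
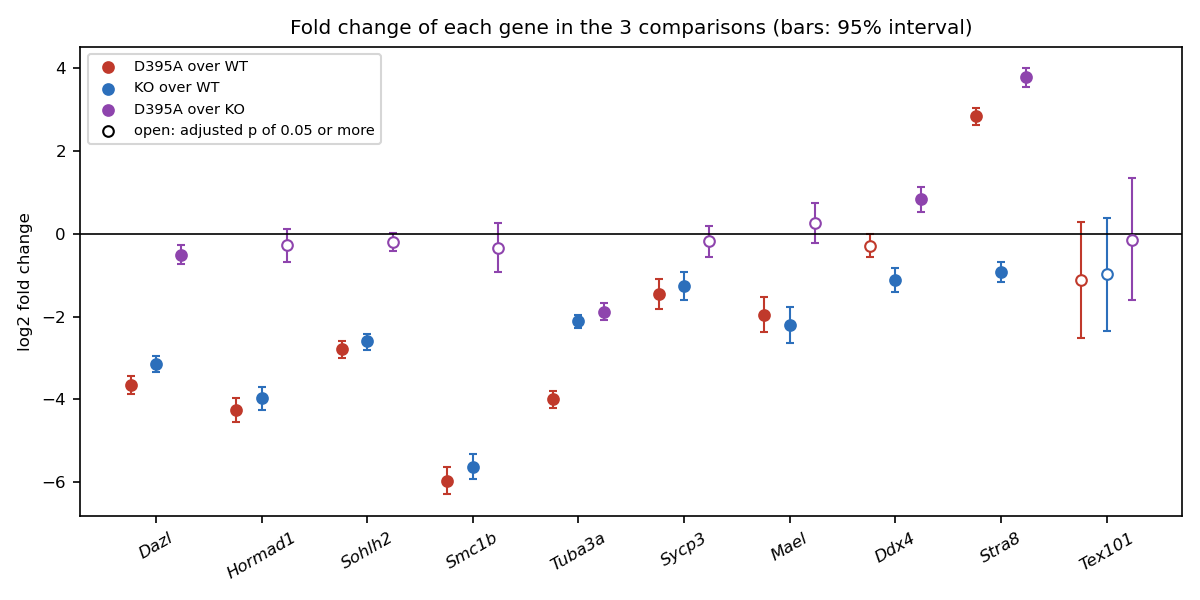
Log2 fold change (vertical axis) of each of the 10 genes in D395A over WT, KO over WT and D395A over KO, with 95% intervals of the fit as bars and open points where the adjusted p was 0.05 or more. Smc1b has the lowest values against WT (-5.97 and -5.63), and Stra8 lies above 0 in D395A over WT (2.85) and below it in KO over WT (-0.93).

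Stra8 encodes the gatekeeper of meiotic entry, which retinoic acid induces in germ cells (chr6:34920163-34939344, plus strand). It had 199 and 162 CPM in D395A, 12.6 and 13.8 CPM in KO, against 25.2 and 24.9 CPM in WT. D395A was high and KO low with WT in between, at log2 fold changes of 2.85 ± 0.09 in D395A (7.21-fold higher, adjusted p = 8.2e-11) and -0.93 ± 0.11 in KO (1.9-fold lower, adjusted p = 6.9e-06). Sohlh2 encodes a bHLH transcription factor of early spermatogonia and oocytes (chr3:55182028-55209957, plus strand). It had 15.7 and 19.9 CPM in D395A, 19.5 and 21.7 CPM in KO, against 124 and 126 CPM in WT, log2 fold changes of -2.79 ± 0.09 in D395A (adjusted p = 9.4e-11) and -2.60 ± 0.09 in KO (adjusted p = 2.1e-10). Its partner Sohlh1, named after its values were seen, had at most 1 count in any library.

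Of 14 other germ cell transcription factors 12 were tested, and 5 were lower, 5 higher and 2 did not pass in D395A, with 5 lower, 2 higher and 5 not passed in KO. Dmrt1, a regulator of the switch from mitosis to meiosis, shared with Stra8 the order D395A, WT, KO: it had 65.4 and 68.2 CPM in D395A, 7.0 and 8.3 CPM in KO, against 41.3 and 41.1 CPM in WT, log2 fold changes of 0.70 ± 0.07 in D395A and -2.43 ± 0.09 in KO. Prdm1, a repressor that specifies primordial germ cells, was lower in both, at -2.19 ± 0.18 in D395A and -2.11 ± 0.17 in KO. Taf7l, a testis variant of a general transcription factor subunit, was lower at -1.31 ± 0.28 in D395A and -2.28 ± 0.29 in KO, and the D395A call was lost without WT replicate 2 (adjusted p = 0.0517). Sox30, which drives later stages of spermatogenesis, was higher in D395A by 3.17 ± 0.54, and its 1.16 ± 0.56 in KO did not pass (adjusted p = 0.086). Its level was low throughout, with 36 and 82 counts in D395A, 18 and 15 in KO, and 7 and 9 in WT.

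Among genes of meiotic recombination and meiotic entry other than Stra8, 22 of 24 were tested, and 14 were lower, 3 higher and 5 did not pass in D395A, with 15 lower, 2 higher and 5 not passed in KO. In D395A most tested genes of this list were thus lower, while Stra8 itself was higher. Terb2, which ties meiotic telomeres to the nuclear envelope, had 0.17 and 0.36 CPM in D395A, 0.853 and 0.576 CPM in KO, against 7.84 and 8.65 CPM in WT, log2 fold changes of -4.85 ± 0.31 in D395A and -3.52 ± 0.27 in KO. Rec114, needed for meiotic DNA breaks, was lower at -2.83 ± 0.13 in D395A and -0.68 ± 0.11 in KO. Spata22, a recombination protein, had 4 and 0 counts in D395A, 12 and 7 in KO, and 80 and 49 in WT, and passed as lower in both mutant lines. Its fitted value in D395A rests on 1 library with reads: it was -4.48 ± 0.88, but -3.26 without D395A replicate 2 and -8.93 without D395A replicate 1, where the library left has 0 counts and the value is no bound, and in KO it was -2.60 ± 0.71. Mei1, also needed for breaks, was lower at -2.03 ± 0.58 in D395A and -3.25 ± 0.63 in KO. It rests on few counts, 7 and 9 in D395A, 5 and 3 in KO, and 41 and 45 in WT. The KO call of Spata22 was lost without WT replicate 1 (adjusted p = 0.0807), and the D395A call of Mei1 without D395A replicate 2 (0.0529) or WT replicate 2 (0.0635).

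Genes that make, bind, sense or break down retinoic acid were listed as possible input to Stra8. Of 15, 13 were tested, and 8 were higher, 2 lower and 3 did not pass in D395A, with 4 higher, 3 lower and 6 not passed in KO. The genes counted as higher include those of the enzymes that break retinoic acid down, named after their values were seen: Cyp26a1 had 2.5 ± 0.84 in D395A and 2.61 ± 0.83 in KO, and Cyp26b1 had 2.29 ± 0.69 in D395A and 1.61 ± 0.69 in KO, the last of which did not pass (adjusted p = 0.057). Both rest on few counts. Cyp26a1 had 10 and 18 counts in D395A, 23 and 12 in KO, and 1 and 5 in WT. Cyp26b1 had 23 and 17 in D395A, 18 and 13 in KO, and 6 and 5 in WT. Rarb, a receptor gene that retinoic acid induces, had 4.73 and 3.72 CPM in D395A, 0.199 and 0.49 CPM in KO, against 0.197 and 0.331 CPM in WT, a log2 fold change of 3.99 ± 0.48 in D395A (adjusted p = 8.2e-06). Crabp2, which carries retinoic acid to its receptors, had 9.33 and 9.54 CPM in D395A, 0.512 and 0.346 CPM in KO, against 1.35 and 0.965 CPM in WT, at 3.02 ± 0.23 in D395A and -1.43 ± 0.30 in KO, so that it was higher in D395A and lower in KO. Its relative Crabp1 was lower in both, at -1.50 ± 0.12 in D395A and -2.47 ± 0.13 in KO, and Rxra, the receptor partner, was higher in both, by 1.38 ± 0.07 in D395A and 1.74 ± 0.07 in KO. Aldh1a3, an enzyme that makes retinoic acid, had 0 and 3 counts in D395A, 16 and 16 in KO, and 160 and 192 in WT. The D395A level was 90.9-fold lower than in WT by the ratio of summed counts, with an exact 95% interval of 30.9 to 442 that covers counting error only, and the KO value was -3.32 ± 0.40.

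Tuba3a encodes a form of alpha tubulin that is prominent in testis (chr6:125278274-125286042, minus strand). It had 11.3 and 9.34 CPM in D395A, 35.8 and 39.5 CPM in KO, against 165 and 161 CPM in WT. The 3 groups were well apart, at log2 fold changes of -4.00 ± 0.09 in D395A (adjusted p = 5.6e-12) and -2.11 ± 0.08 in KO (adjusted p = 2.6e-10). Tuba3b, a near-identical copy with which reads may be shared, had 3.11 and 1.80 CPM in D395A, 6.68 and 7.38 CPM in KO, against 20.7 and 20.8 CPM in WT, so the values of both are uncertain as to which copy they count, and 4.97% of the exon bases of Tuba3a overlap 4930417O13Rik on the opposite strand. Of 6 other alpha tubulin genes 4 were lower, 1 higher and 1 did not pass in D395A, and 3 were lower, 2 higher and 1 did not pass in KO. Tuba8 was low throughout and lower in the mutants, at -3.79 ± 0.52 in D395A and -2.15 ± 0.44 in KO. Tuba4a, at 92.6 and 98.5 CPM in D395A, 180 and 194 CPM in KO, against 128 and 117 CPM in WT, was lower in D395A (-0.35 ± 0.07) and higher in KO (0.61 ± 0.07).

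Tex101 encodes a glycoprotein on the surface of male germ cells (chr7:24668007-24676675, minus strand). It had 8 and 7 counts in D395A, 9 and 11 in KO, and 27 and 17 in WT, which is 0.341 and 0.194 CPM in D395A, 0.256 and 0.317 CPM in KO, against 0.664 and 0.469 CPM in WT. Its log2 fold change was -1.11 ± 0.65 in D395A (95% interval -2.52 to 0.29, adjusted p = 0.14) and -0.98 ± 0.63 in KO (-2.34 to 0.38, adjusted p = 0.19). Neither interval excludes 0 or a fall of the size seen in Sycp3.

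The mutant lines were compared with each other to test where they differ. Against KO, D395A was higher for Stra8 and Ddx4 and lower for Tuba3a and Dazl, and 6 genes did not pass, in a comparison in which 50.4% of all genes tested passed, 26.5% as higher and 23.8% as lower. Stra8 differed by a log2 fold change of 3.78 ± 0.10 (13.7-fold, adjusted p = 4.6e-11), Ddx4 by 0.83 ± 0.14 (adjusted p = 0.00029), Tuba3a by -1.89 ± 0.09 (adjusted p = 6.7e-09) and Dazl by -0.51 ± 0.11 (adjusted p = 0.0019). These genes and Hormad1 had libraries that did not overlap between D395A and KO, as did 74.7% of all genes. For the 6 others the estimates and 95% intervals were -0.34 (-0.92 to 0.25) for Smc1b, -0.28 (-0.68 to 0.11) for Hormad1, -0.19 (-0.41 to 0.03) for Sohlh2, -0.18 (-0.56 to 0.20) for Sycp3, 0.26 (-0.22 to 0.74) for Mael and -0.14 (-1.61 to 1.34) for Tex101. The intervals of Hormad1, Sohlh2, Sycp3, Mael and Smc1b do not reach a difference of 2-fold, and that of Tex101 does. They cover the spread from library to library alone, and that of Smc1b comes close, at -0.92. Sohlh2 passed as lower in D395A without D395A replicate 2 (-0.39, adjusted p = 0.01).

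**Figure D4:**
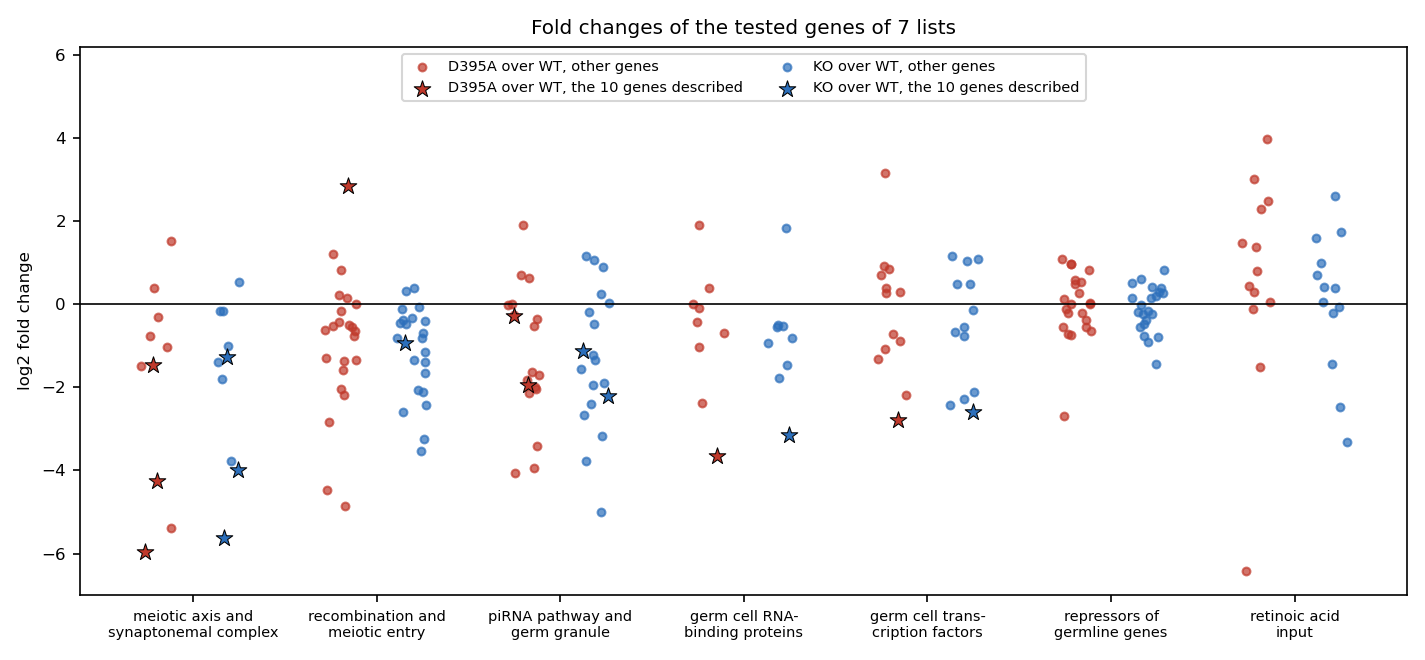
Log2 fold change (vertical axis) of every tested gene of 7 lists in D395A over WT and KO over WT; dots are other genes and stars are the 8 of the 10 genes that belong to these 7 lists (Tuba3a and Tex101 do not). Most dots of the piRNA and recombination lists lie below 0, with medians of -1.62 and -0.63 in D395A for the dots, and the retinoic acid list has a median of 0.81 in D395A.

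Over the 5 germline lists together, 66 of 76 other genes were tested. In D395A 36 were lower, 14 higher and 16 did not pass, with a median log2 fold change of -0.58, and in KO 42 were lower, 9 higher and 15 did not pass, with a median of -0.78. Of all genes tested, 34.0% were lower and 36.3% higher in D395A, and 32.6% and 33.6% in KO. Between D395A and KO 23 were higher, 17 lower and 26 did not pass, beside 26.5% higher and 23.8% lower for all genes tested. The lists were put together with results on these cells already known.

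The genes for repressors of the germline set moved both ways. Of 22 tested, 9 were lower, 8 higher and 5 did not pass in D395A, and 11 were lower, 8 higher and 3 did not pass in KO, with medians of 0.00 in D395A and -0.09 in KO. Changes both ways were also what all genes tested showed, with 34.0% lower and 36.3% higher in D395A, and 32.6% and 33.6% in KO. E2f6 and Mga, named after their values were seen because their proteins recognise DNA for PRC1.6, had log2 fold changes of 0.59 and -0.55 in D395A and 0.21 and -0.22 in KO. Dnmt3l, the cofactor of new DNA methylation, was lower, at -2.70 ± 0.15 in D395A and -0.78 ± 0.13 in KO. Cbx3, a heterochromatin protein, had -0.11 ± 0.06 in D395A, which did not pass (adjusted p = 0.12), and -1.44 ± 0.06 in KO, and Tfdp1, an E2F partner, was lower at -0.54 ± 0.06 in D395A and -0.91 ± 0.06 in KO. Ring1, a Polycomb ubiquitin ligase, was higher by 1.09 ± 0.14 in D395A and 0.51 ± 0.14 in KO, its binding partner gene Yaf2 by 0.98 ± 0.10 in D395A and 0.62 ± 0.10 in KO, and Ehmt2, a histone methyltransferase, by 0.49 ± 0.06 in D395A and 0.84 ± 0.06 in KO. The KO call of Ring1 was lost without WT replicate 1 (adjusted p = 0.0572).

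The genes next to the 10 on the chromosome moved both ways. Of 18 neighbouring protein-coding genes in the files 14 were tested, and 6 were higher, 6 lower and 2 did not pass in D395A, with 5 higher, 6 lower and 3 not passed in KO, and medians of 0.09 in D395A and -0.18 in KO. All genes tested also moved both ways, with 36.3% higher and 34.0% lower in D395A, and 33.6% and 32.6% in KO. Smc1b starts 113 bases from Ribc2, a gene of motile cilia on the other strand, which had 0 counts in the 2 D395A and the 2 KO libraries and 9 and 2 counts in WT, too few to be tested. On its other side Fam118a had -0.05 ± 0.08 in D395A and -0.06 ± 0.08 in KO, and neither passed (adjusted p = 0.59 and 0.53). Gpa33, a cell surface glycoprotein gene 34.7 kb from Mael, had 3.96 and 4.74 CPM in D395A, 4.38 and 3.77 CPM in KO, against 60.8 and 64.3 CPM in WT, lower at -3.82 ± 0.10 in D395A and -3.94 ± 0.10 in KO, beside -1.95 in D395A and -2.21 in KO for Mael. Ccdc169, 9.1 kb from Sohlh2, was lower at -1.98 ± 0.55 in D395A and -2.62 ± 0.57 in KO, and its D395A call was lost without WT replicate 1 (adjusted p = 0.0557). The neighbours of Dazl lie farther off. Plcl2, 215.8 kb away, was higher by 2.88 ± 0.08 in D395A and 2.55 ± 0.08 in KO. Rftn1, 88.7 kb away, was lower at -1.01 ± 0.12 in D395A and higher by 1.0 ± 0.10 in KO. On the other side of Mael, Ildr2 (15.4 kb away) was higher in D395A by 2.25 ± 0.73 and did not pass in KO. That D395A call, on 22 and 21 counts, was lost in 3 of 14 alternatives. Dclk1, 32.4 kb from Sohlh2, was higher in D395A by 3.53 ± 0.8 and did not pass in KO. Golph3l, 1.3 kb from Hormad1, was higher by 1.21 ± 0.08 in D395A and 1.01 ± 0.08 in KO. Next to Stra8, Wdr91 passed at 0.31 ± 0.08 in D395A and -0.31 ± 0.08 in KO. Slc23a4 passed at -1.2 ± 0.5 in D395A, lost in 5 alternatives, and -1.66 ± 0.5 in KO. Next to Tuba3a, Vamp1 passed at -1.05 ± 0.12 in D395A and -0.7 ± 0.12 in KO. Ltbr passed at 1.63 ± 0.13 in D395A and 2.5 ± 0.13 in KO. Slc38a9, next to Ddx4, passed at -0.41 ± 0.08 in D395A and -0.85 ± 0.08 in KO. Ctss, Il31ra and Lypd3 were not tested.

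Markers of cells that could carry germline RNA or share the dish were read as whole lists. Of 7 primordial germ cell markers, 4 were lower and 3 higher in D395A, and 4 were lower, 1 higher and 2 did not pass in KO, and the summed level was 297 and 287 CPM in D395A, 362 and 373 CPM in KO, against 682 and 685 CPM in WT. Kit, Dppa3 and Prdm14 of this list are named after their values were seen. Kit, a receptor of germ cells and their precursors, held most of the WT sum, with 106 and 112 CPM in D395A, 217 and 229 CPM in KO, against 519 and 516 CPM in WT. Dppa3, a maternal factor also expressed by primordial germ cells, took the order seen in Stra8, with 83.6 and 69.0 CPM in D395A, 2.53 and 2.65 CPM in KO, against 25.2 and 27.6 CPM in WT. Prdm14, a regulator of germ cell fate and pluripotency, took the opposite order, with 35.1 and 35.0 CPM in D395A, 88.3 and 91.5 CPM in KO, against 63.7 and 65.2 CPM in WT. The 10 spermatid markers summed to 1.28 and 0.887 CPM in D395A, 0.882 and 1.07 CPM in KO, against 4.74 and 6.83 CPM in WT, with Prm1, Prm2, Acrv1, Pgk2 and Akap4 at 0 in every library. The 2 that were tested, Ldhc and Odf1, were lower in both mutant lines. Odf1 had 0 and 4 counts in D395A, 0 and 1 in KO, and 12 and 27 in WT. It passed the count filter through WT alone, so its call as lower carries no weight. The 7 oocyte markers summed to 5.83 and 5.74 CPM in D395A, 5.72 and 5.82 CPM in KO, against 8.60 and 6.64 CPM in WT, with Zp1, Zp2 and Oosp1 at 0 in every library, and of the 2 tested 1 was lower in D395A and neither passed in KO.

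Of 8 embryonic stem cell markers, 7 were lower and 1 did not pass in D395A, and 3 were higher, 3 lower and 2 did not pass in KO. Their sum was 1890 and 1950 CPM in D395A, 4490 and 4470 CPM in KO, against 3900 and 3960 CPM in WT, so markers of the labelled cell type were present in every library and their sum was lowest in D395A. Primitive endoderm markers (5 of 6 tested; 2 higher and 2 lower in each mutant line) summed to 40.7 and 44.0 CPM in D395A, 24.5 and 30.6 CPM in KO, against 12.3 and 11.7 CPM in WT. Neuroectoderm markers (2 of 5 higher and 3 lower in D395A, 3 of 5 lower in KO) summed to 55.3 and 53.3 CPM in D395A, 52.6 and 52.0 CPM in KO, against 90.1 and 86.4 CPM in WT. Mesoderm markers (2 of 3 tested lower in each mutant line) summed to 2.34 and 2.33 CPM in D395A, 8.59 and 9.80 CPM in KO, against 20.3 and 17.6 CPM in WT. Fibroblast feeder markers (5 of 7 tested; 2 higher and 2 lower in D395A, 1 of each in KO) summed to between 5.77 and 9.44 CPM in all libraries, and Sertoli cell markers (5 of 7 tested; 3 higher and 1 lower in D395A, 1 of each in KO) to between 6.75 and 10.9 CPM. Each sum follows the most abundant genes of its list and can hide markers that moved the other way. An example from the neuroectoderm list, named after the values were seen, is Nes at -1.12 ± 0.09 and Pax6 at 3.08 ± 0.32 in D395A. The part of these cell state markers in the changes of the 10 genes was not tested.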

How the data were processed

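Total RNA of the 6 libraries was depleted of ribosomal RNA and made into directional libraries, per the labels' protocols. The authors deposited raw counts per gene. Per the submitters' processing notes, Trimmomatic 0.36, STAR 2.7 and HTSeq 0.11.2 were used with mm10. Which annotation and strand setting the counting used is not given in the sources used here. HTSeq summary lines, 29.05% to 44.23% of each file's total, were left out, and Rn45s took 10.83% to 16.7% of gene counts.

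Here, filterByExpr (minimum count 10) kept 15663 of 24984 genes, and edgeR 4.0.16 in R 4.3.3 was fitted with TMM factors and 1 quasi-likelihood model over all 6 libraries without covariates (3 residual degrees of freedom, prior 9.26, biological coefficient of variation 6%), with Benjamini-Hochberg adjustment at 0.05. The method was tested on simulated data in which only a small part of the genes changed. That test does not cover changes as widespread as those seen here. Levels are TMM-scaled CPM. The SE is the size of the log2 fold change divided by the square root of F, and the 95% intervals are built on it. Alternatives used other scaling (with or without Rn45s), filters, DESeq2 1.42.0, limma 3.58.1 (voom), a replicate block, the 4 compared libraries alone, and 1 library left out. Positions, exon lengths and neighbours came from GENCODE M21 (GRCm38), promoters from RefSeq (GRCm38.p6).

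The members and lists were chosen with earlier results of these data known. Named genes are the 10, Mettl3, up to 3 further genes per list and comparison with WT (passed, largest change, at least 1 CPM in a group), 5 genes most like Dazl, and the next protein-coding genes; others, marked in the text, were chosen after their values were seen. The neighbour BC049730 was not analysed here.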

Additional observations from a re-analysis of the deposited data

Results flagged for a closer look

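For 4 of the 10 genes the change from WT differed between the mutant lines, by the test of D395A against KO (both are set against the same WT libraries). Over all genes tested 50.4% passed in that comparison, so 4 of 10 is not above the background. Stra8 differed by a log2 value of 3.78, with 199 and 162 CPM in D395A and 12.6 and 13.8 CPM in KO. Tuba3a differed by -1.89, with 11.3 and 9.34 CPM in D395A and 35.8 and 39.5 CPM in KO. Ddx4 differed by 0.83, with 13.7 and 13.5 CPM in D395A and 8.53 and 6.74 CPM in KO. Dazl differed by -0.51, with 12.5 and 10.3 CPM in D395A and 15.0 and 17.0 CPM in KO. What underlies these differences was not tested.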

How the results depend on the processing

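Over 14 alternatives the members kept their counts within 1.5 times of those reported: 7 to 8 lower and 1 higher in D395A against WT, 9 lower and 0 higher in KO against WT, and 2 to 3 lower and 2 higher in D395A against KO. Of 417 recomputed member values none was reversed and no call was lost. Calls were gained for Ddx4 in D395A against WT (5 alternatives) and Sohlh2 in D395A against KO (without the filter, -0.22, adjusted p = 0.0324, and without D395A replicate 2). In D395A against KO 4 values that had not passed changed sign. Dazl in D395A against KO stayed between -0.63 and -0.36 with 1 library left out. The 52 other genes recomputed were the list genes named by rule, the tested neighbours and Mettl3. Among them, 71 of 2151 values lost their call, 21 of them in comparisons with WT, and none was reversed. The 5 genes most like Dazl, genes named only as cell type markers, and other genes named after their values were seen were not recomputed. Same-numbered libraries did not deviate together (correlations of -0.123 for D395A with KO, -0.00257 for D395A with WT and -0.00783 for KO with WT). With replicate number as a block, 5604 genes were higher and 5239 lower in D395A against WT, 5192 and 5028 in KO against WT, and 4148 and 3684 in D395A against KO, with the members' counts as reported. With the KO numbers crossed, an alternative added after seeing the data, D395A against KO gave 4081 and 3615. Tex101, with 7 to 27 counts per library, is limited by depth and was dropped by the stricter filter.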
